A study of Mus musculus with 19 samples.

Results

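Ago2-bound miRNAs of vascular and mural cells were examined in mouse brain libraries made from whole tissue and from classes of neurons. The set was chosen by name and held miR-126-3p, miR-126-5p, miR-143, miR-145, miR-199a-3p and miR-199b, of which 5 of 6 were matched among the 528 miRNA names of the deposited table. miR-145 was not analysed here. miR-199a-3p and miR-199b had the same number of reads in 17 of 19 libraries and differed by 1 read in the others, so the 5 names stand for 4 separate measurements and miR-199a-3p is given for both.

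MicroRNAs are loaded into Argonaute proteins such as Ago2 and pair through their seed, near the 5′ end, with target transcripts that they repress. miR-126 is made in endothelial cells, where it is known for its role in vessel integrity and VEGF signalling. miR-143 is a miRNA of vascular smooth muscle and pericytes, the mural cells that wrap brain vessels, and miR-199a and miR-199b are miRNAs of fibroblasts and other mesenchymal cells. None of these lineages is a neuron.

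The 7 groups were all from mice at postnatal day 56. Myc-tagged Ago2 was precipitated with anti-myc from Purkinje cells of the cerebellum (n = 3 libraries, each of 3 pooled tissues, background C57BL/6 & black swiss). The same antibody served for the neocortical classes Gad2 (n = 3), PV (n = 2) and SST (n = 2), each library from 4 pooled tissues on a C57BL/6 & 129 background. It was also used for neocortical Camk2a cells (n = 3, 1 tissue each, C57BL/6 & BALB/c). Gad2 marks GABAergic neurons, Camk2a excitatory neurons, and parvalbumin (PV) and somatostatin (SST) separate classes of GABAergic interneuron. Endogenous Ago2 was precipitated with anti-Ago2 from whole Cerebellum (n = 3, 1 tissue each, C57BL/6 & black swiss) and whole Neocortex (n = 3, 1 tissue each, C57BL/6 & BALB/c). The driver lines that restricted the tag are not given in the sources used here. Cell class and antibody therefore change together in each comparison with whole tissue and cannot be told apart. The same holds for the number of pooled tissues in all classes but Camk2a, and for strain in Gad2, PV and SST cells.

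Depth ranged from 1229834 to 14249087 miRNA reads per library, and 3 reads, taken as the floor, stood at 0.211 to 2.44 reads per 1000000 miRNA reads (RPM). Levels are shares of the miRNA pool, so fewer cells of a type and less RNA per cell cannot be told apart. The labels do not say that replicates were separate animals, and p-values then measure only the spread between libraries, which may be technical. In 18 of 19 libraries the nearest library in log2 level was of the same group, the exception being SST replicate 2, whose nearest was Gad2 replicate 1. The neuron list of 6 miRNAs summed to at least 171328 RPM in every library.

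The mature sequences show why miR-199a-3p and miR-199b were measured together and why miR-126-3p stands alone. Sequences and positions are from RefSeq (GRCm38.p6), which holds miR-126-3p as miR-126a-3p. Capitals mark the seed, bases 2 to 8.
miR-126-3p, chr2:26591402-26591423, plus strand: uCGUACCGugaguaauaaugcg
miR-199a-3p, chr1:162217883-162217904, plus strand: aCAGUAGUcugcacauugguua
miR-199b, chr2:32318524-32318545, plus strand: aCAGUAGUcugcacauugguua
miR-199a-5p, chr1:162217844-162217866, plus strand: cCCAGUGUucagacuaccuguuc
The seed of miR-199a-3p was held by 2 of 1679 mature mouse names, these 2, while the seed of miR-126-3p was held by 1. The sequence of the other arm of miR-199a, miR-199a-5p, is given because it was counted separately. A read of the 3p arm cannot be assigned to one of 3 hairpins, shown next with that arm in capitals.
Mir199a-1, chr9:21496495-21496564, minus strand: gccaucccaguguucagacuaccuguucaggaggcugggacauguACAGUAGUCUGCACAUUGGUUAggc
Mir199a-2, chr1:162217814-162217923, plus strand: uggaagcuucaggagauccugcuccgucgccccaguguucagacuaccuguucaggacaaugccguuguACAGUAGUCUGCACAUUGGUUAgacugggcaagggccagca
Mir199b, chr2:32318460-32318569, plus strand: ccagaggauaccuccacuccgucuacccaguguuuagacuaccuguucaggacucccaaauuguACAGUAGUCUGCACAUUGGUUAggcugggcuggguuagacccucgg
In GENCODE M21 (GRCm38), Mir199a-1 lay in an intron of Dnm2 on the opposite strand. Mir199b lay in an intron of Dnm1, also on the opposite strand. Mir199a-2 overlapped an exon of the noncoding transcript Dnm3os on the same strand and lay in an intron of Dnm3 on the opposite strand. Mir126a (chr2:26591357-26591429) overlapped an exon of a transcript of Egfl7, a gene of endothelial cells, on the same strand.

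The endothelial miR-126-3p was far less abundant in every neuron class than in whole tissue. It had 223, 262 and 230.3 RPM in Purkinje libraries, against 2743, 2847 and 3058 RPM in Cerebellum libraries. In the neocortex it had 215, 249.9 and 221 RPM in Gad2 libraries, 663, 722 and 682 RPM in Camk2a libraries, 162 and 190.2 RPM in PV libraries and 568 and 542 RPM in SST libraries, against 2288, 2366 and 3313 RPM in Neocortex libraries. No cell-class library reached the lowest tissue library, and the Camk2a and SST libraries stood above those of the other classes. From the top, the order of the group means was Cerebellum, Neocortex, Camk2a, SST, Purkinje, Gad2 and PV, and the libraries of Cerebellum and Neocortex, and of Purkinje and Gad2, overlapped. It ranked 110 to 114 by abundance among all miRNAs in Purkinje libraries, against 36 to 38 in Cerebellum libraries.

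The other arm of the hairpin, miR-126-5p, was lower in abundance and more variable. It had 102, 143 and 74.9 RPM in Purkinje libraries, against 1414, 1219.7 and 1523 RPM in Cerebellum libraries. The neocortical values were 40.3, 61.5 and 41.8 RPM in Gad2, 285, 153 and 211 RPM in Camk2a, 45.1 and 37.8 RPM in PV and 155 and 145 RPM in SST, against 1342, 781 and 881 RPM in Neocortex. Camk2a and SST libraries were again the highest of the cell classes, and these 2 classes overlapped, as did Gad2 and PV.

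miR-143, the miRNA of mural cells, showed the widest gap between neurons and tissue. It had 17.4, 19.2 and 17.8 RPM in Purkinje libraries, against 1800.2, 1744 and 1732 RPM in Cerebellum libraries. It had 42.2, 42.8 and 32.6 RPM in Gad2, 45.9, 58.2 and 45.2 RPM in Camk2a, 87.2 and 102 RPM in PV and 43.8 and 47.2 RPM in SST, against 4428, 4694 and 3984 RPM in Neocortex. Unlike either arm of miR-126, it was highest in PV among the cell classes, and all libraries of one tissue lay apart from those of the other. By abundance it ranked 209 to 234 in Gad2 libraries, against 27 to 33 in Neocortex libraries.

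miR-199a-3p, of mesenchymal cells, was the least abundant of the set in 6 of the 7 groups, SST being the exception, and the only one with a cell class as high as its tissue. It had 3.39, 6.01 and 2.96 RPM in Purkinje libraries (7, 15 and 10 reads), against 24.4, 38.6 and 35.0 RPM in Cerebellum libraries. It had 18.1, 27.4 and 24.3 RPM in Gad2, 7.95, 7.10 and 6.24 RPM in Camk2a, 3.91 and 4.11 RPM in PV and 72.7 and 74.5 RPM in SST, against 43.7, 72.0 and 71.1 RPM in Neocortex. Both SST libraries lay just above the highest Neocortex library, and both PV libraries lay within the range of the Purkinje libraries at the bottom.

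**Figure D1:**
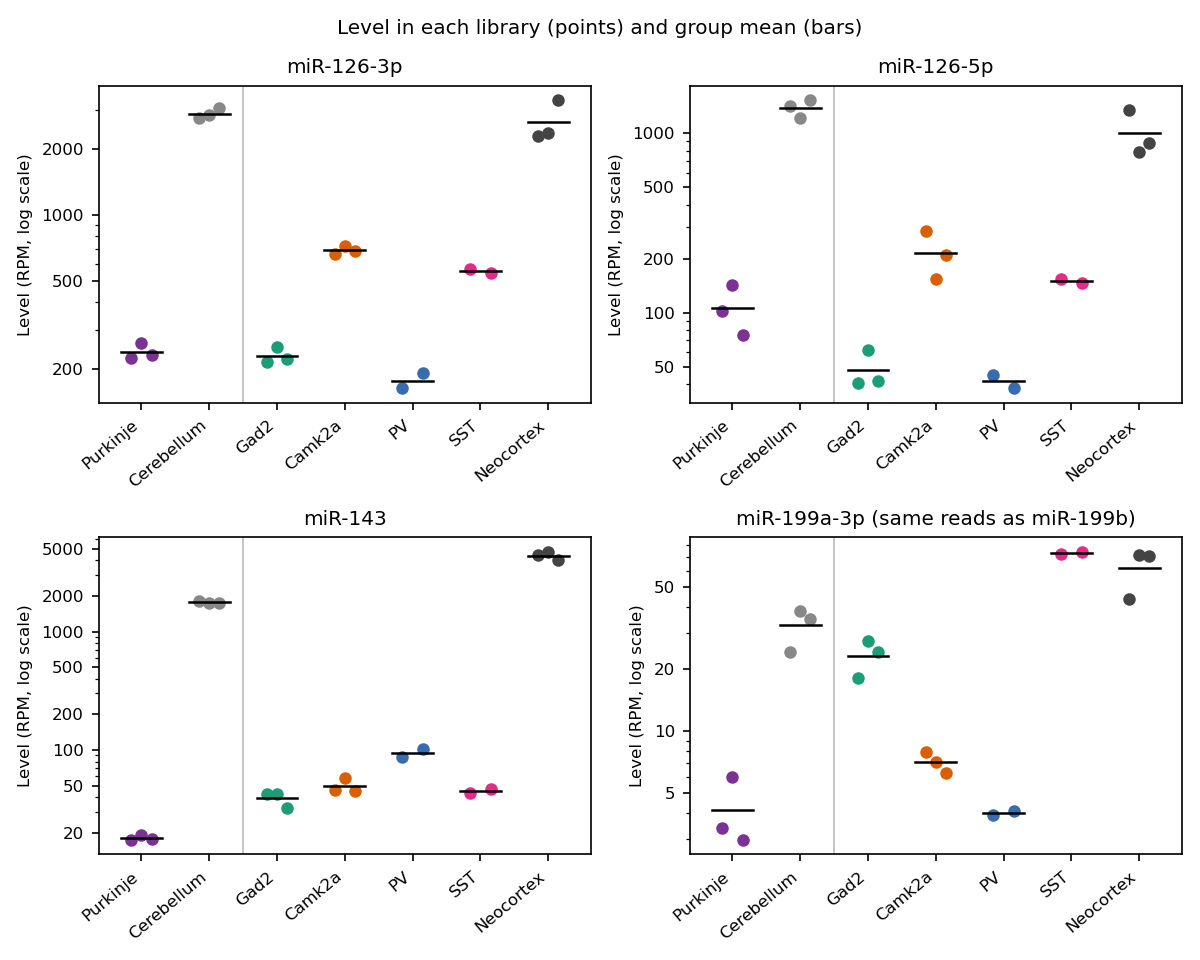
Level of miR-126-3p, miR-126-5p, miR-143 and miR-199a-3p in RPM (log axis) in each of 19 libraries (points), with the group mean (bars); the grey line separates cerebellar groups, on its left, from neocortical groups. Whole tissues stand at the top in the first 3 panels, while in the panel of miR-199a-3p the 2 SST libraries, at 72.7 and 74.5 RPM, lie above all others.

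The set was first compared between Purkinje cells, the output neurons of the cerebellar cortex, and their whole tissue. All 4 measurements were lower in Purkinje cells. miR-143 was 96.5-fold lower (log2 change −6.59, SE 0.17, adjusted p = 1.54e-17 in limma), rank 14 from the lowest of 522 tested miRNAs. miR-126-3p was 12.1-fold lower (−3.60, SE 0.15, adjusted p = 3.88e-14 in limma), and miR-126-5p 13.4-fold (adjusted p = 9.78e-11 in limma). miR-199a-3p was 7.99-fold lower (adjusted p = 3.15e-08 in limma). Of all tested miRNAs 37.4% were called lower in Purkinje cells at an adjusted p under 0.05, so a call by itself is common here. The median log2 change was −3.67 for the 4 measurements and −0.19 over all 522.

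Gad2 cells were set against whole Neocortex in the same way, and again all 4 measurements were lower, where 24.3% of all miRNAs were. miR-143 fell by 6.80 on the log2 scale (112-fold, adjusted p = 8.46e-18 in limma), rank 2 of 522. miR-126-3p was 11.5-fold lower and miR-126-5p 20.7-fold lower (adjusted p = 1.75e-13 and 5.25e-11 in limma). The fall of miR-199a-3p was smaller, 2.64-fold (adjusted p = 0.000937 in limma). The median log2 change was −3.95 for the 4 measurements and −0.09 over all miRNAs.

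In Camk2a cells all 4 were lower than in Neocortex, where 28.0% of miRNAs were called lower. The arms of miR-126 changed least, with miR-126-3p 3.80-fold lower (adjusted p = 4.99e-09 in limma) and miR-126-5p 4.65-fold lower (adjusted p = 1.01e-06 in limma). miR-143 was 88.0-fold lower (adjusted p = 2.33e-17 in limma), rank 7, and miR-199a-3p 8.49-fold lower (adjusted p = 1.15e-07 in limma). miR-126-3p thus kept 25.9% of its mean tissue level in Camk2a libraries, while miR-143 kept 1.14%. Over all miRNAs 37.6% of calls were higher in Camk2a cells, against 51.1% after division by TMM factors. The median log2 change over all miRNAs was −0.04 after that division and −0.25 as deposited.

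PV cells were lower than Neocortex for all 4 measurements, where 29.3% of miRNAs were called lower. miR-143 was 46.2-fold lower (adjusted p = 4.05e-15 in limma), rank 9. miR-126-3p was 14.9-fold lower, miR-126-5p 23.5-fold lower and miR-199a-3p 14.8-fold lower (adjusted p = 1.47e-13, 5.04e-11 and 7.46e-09 in limma). The median log2 change of all miRNAs was −0.21 here as deposited and 0 after TMM division.

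In SST cells 3 of 4 measurements were lower than in Neocortex, where 21.5% of miRNAs were called lower and 31.0% higher. miR-143 was 95.7-fold lower (adjusted p = 1.42e-16 in limma), rank 3, miR-126-3p 4.72-fold lower (adjusted p = 1.76e-09 in limma) and miR-126-5p 6.49-fold lower (adjusted p = 2.51e-07 in limma). miR-199a-3p had a log2 change of 0.28 (95% interval −0.44 to 1.00, adjusted p = 0.539 in limma). Its SST and Neocortex libraries did not overlap, but the nearest stood at 72.7 and 72.0 RPM. The log2 change turned to −0.15 after TMM division, where the median of all miRNAs was −0.20 instead of 0.13. The share of calls that were higher fell to 44.8% after TMM division, against 59.1% as deposited. The interval leaves out a fall of the size seen in the other 4 cell classes.

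**Figure D2:**
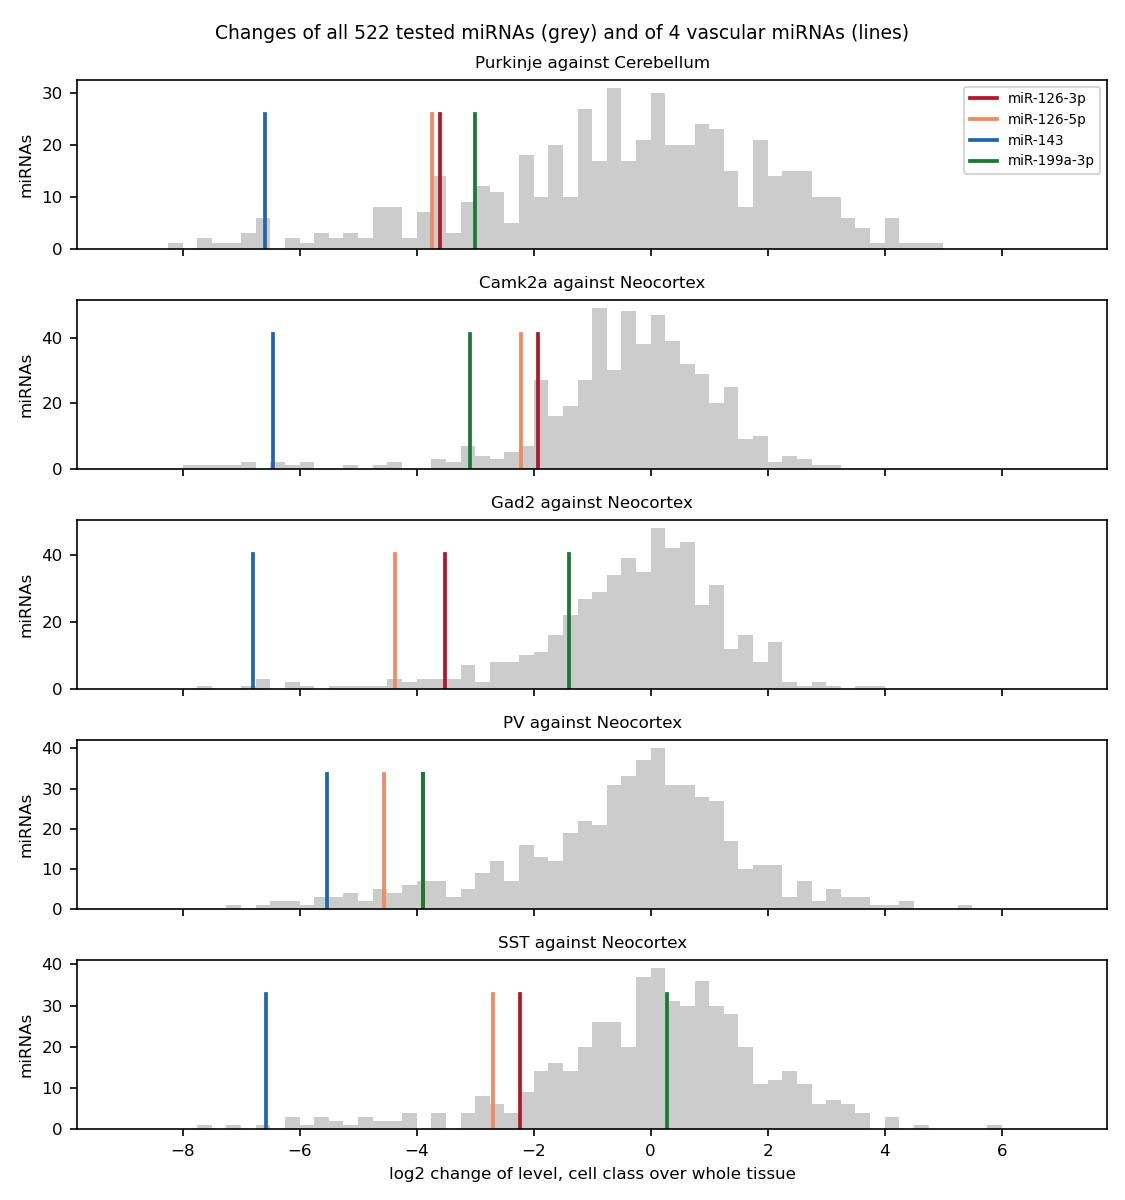
Histograms of the log2 change of all 522 tested miRNAs (grey), cell class over whole tissue, with lines for the 4 vascular measurements; in the PV panel the line of miR-199a-3p (−3.89) covers that of miR-126-3p (−3.90). miR-143 lies in the far left tail of all 5 panels, while miR-199a-3p moves between −3.89 in PV and 0.28 in SST.

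Other non-neuronal lists were read beside these falls. Of the 7 blood and leukocyte miRNAs, 6 were lower in each of the 5 cell classes than in the tissue, and miR-486 was higher in each. Over these 5 comparisons 21.5% to 37.4% of all miRNAs were called lower, and 88 to 163 of 522 were called higher. Their summed level was 1273 to 1585 RPM in Purkinje, 74.9 to 175 RPM in Gad2, 45.1 to 54.1 RPM in Camk2a, 244 to 260.2 RPM in PV and 299.5 to 358 RPM in SST, against 2826 to 3295 RPM in Cerebellum and 1811 to 4055 RPM in Neocortex. miR-486, whose reads could not be separated from those of the near-identical miR-3107, made up most of the sum in each of the 5 cell classes. Its mean was 1426 RPM in Purkinje, 109 RPM in Gad2, 35.4 RPM in Camk2a, 220 RPM in PV and 282 RPM in SST. In whole tissue it was 351 RPM in Cerebellum and 21.2 RPM in Neocortex. The erythroid miR-451 kept 1.91% of its tissue level in Purkinje and 0.412% in Camk2a libraries. The leukocyte miR-142-3p was at 0 in both SST libraries and ranged from 0 to 2.002 RPM in Purkinje libraries. Its Purkinje mean was 9.48% of the tissue level and rested on the highest library, so the classes are not contrasted. miR-223 kept 19.0% in SST and 8.29% in Purkinje libraries. Its Purkinje mean, 0.759 RPM, lay under the floor of every Purkinje library, and its lowest SST library stood at the floor. No difference between these classes is drawn from it. The oligodendrocyte miR-219-5p and miR-338-3p were both lower in each of the 4 neocortical classes than in Neocortex and neither was called in Purkinje against Cerebellum, where their summed level was 2682 to 3186 RPM in Purkinje and 3278 to 3463 RPM in Cerebellum. In Gad2, Camk2a, PV and SST libraries it was 616 to 1159 RPM, against 1953 to 3162 RPM in Neocortex. miR-338-3p made up most of the sum in every group. miR-219-5p averaged 60.2 RPM in Purkinje and 47.2 RPM in Cerebellum, and 1.88 to 10.0 RPM in the neocortical classes against 23.3 RPM in Neocortex. The part of blood or glial RNA in the vascular results was not tested.

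The neuron list moved in both directions. Of its 6 miRNAs, 1 was higher and 4 lower in Purkinje than in Cerebellum, 1 higher and 2 lower in Gad2, 4 higher and 1 lower in Camk2a, 3 higher and 2 lower in PV, and 2 higher and 3 lower in SST than in Neocortex. Of all 522 miRNAs, 163 were called higher and 195 lower in Purkinje than in Cerebellum. Against Neocortex, 108 were higher and 127 lower in Gad2, 88 and 146 in Camk2a, 101 and 153 in PV, and 162 and 112 in SST. miR-124, the most abundant of the neuron list, averaged 265146 RPM in Gad2 libraries and 177042 RPM in Neocortex libraries, and was called higher in Gad2 cells.

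The whole tissues were compared under the same antibody. Strain differs between them, so region and strain cannot be told apart. miR-143 was 2.48-fold lower in Cerebellum than in Neocortex (log2 change −1.31, SE 0.17, adjusted p = 1.2e-06 in limma), and the libraries did not overlap. miR-199a-3p was 1.89-fold lower (adjusted p = 0.0164 in limma), but was no longer called after TMM or RLE division (adjusted p = 0.0826 and 0.0757 in limma). It was also not called without Cerebellum replicate 1, Neocortex replicate 2 or Neocortex replicate 3 (adjusted p = 0.0833, 0.0686 and 0.0635). The arms of miR-126 did not pass, with log2 changes of 0.14 (95% interval −0.18 to 0.46) and 0.50 (−0.04 to 1.05), and libraries of both tissues overlapped. After TMM division both were called higher in Cerebellum (0.43 and 0.79, adjusted p = 0.0273 and 0.0137 in limma), and miR-126-5p also without Neocortex replicate 1 (0.73, adjusted p = 0.0302). Both arms were also called higher after RLE division (adjusted p = 0.0163 and 0.0139 in limma). The same held in edgeR with RLE (adjusted p = 0.0307 and 0.00977) and in DESeq2 (adjusted p = 0.0109 and 0.0101). Of all miRNAs 36.0% were lower and 19.5% higher in Cerebellum. The share of calls that were higher was 35.2% as deposited and 46.4% after TMM division, with a median log2 change of −0.40 and −0.17.

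Gad2 and Camk2a cells differed in 3 of the 4 measurements, in opposite directions, where 16.7% of miRNAs were called lower and 21.5% higher in Gad2 cells. miR-126-3p was 3.02-fold lower and miR-126-5p 4.45-fold lower in Gad2 cells (adjusted p = 9.18e-08 and 1.46e-06 in limma). miR-199a-3p was 3.22-fold higher in Gad2 cells (adjusted p = 0.0002 in limma). miR-143 did not pass (log2 change −0.34, adjusted p = 0.112 in limma). The Gad2 and Camk2a libraries of miR-143 did not overlap, but the nearest stood at 42.8 and 45.2 RPM. It was called lower in Gad2 cells by edgeR with TMM (adjusted p = 0.0356), edgeR with RLE (adjusted p = 0.0293) and DESeq2 (adjusted p = 0.0198). With RLE factors miR-143 was called lower in Gad2 cells in limma too (−0.52, adjusted p = 0.0302 in limma). With those factors 43.1% of calls were higher in Gad2 cells, against 56.3% as deposited. The strain and the number of pooled tissues differ between these classes too.

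PV and SST cells, which share strain, antibody and pooling, differed in all 4 measurements, where 25.1% of miRNAs were lower and 4.02% higher in PV cells. They did not share depth, which was 10739153 and 11438142 reads in PV libraries and 1278770 and 2457681 reads in SST libraries. miR-199a-3p was 17.9-fold lower in PV cells (log2 change −4.16, SE 0.38, adjusted p = 2.43e-08 in limma), rank 7 from the lowest of 522. miR-126-3p and miR-126-5p were 3.15-fold and 3.63-fold lower (adjusted p = 5.16e-07 and 0.000113 in limma). miR-143 was 2.07-fold higher in PV cells (adjusted p = 0.000434 in limma). SST libraries had the highest TMM factors, 1.53 and 1.42. After TMM division the median of all miRNAs was 0.11 instead of −0.42, and 51.7% instead of 13.8% of calls were higher in PV cells. All 4 measurements kept their direction and call, with log2 changes of −3.53 for miR-199a-3p, −1.02 for miR-126-3p, −1.22 for miR-126-5p and 1.68 for miR-143. The number of all miRNAs called was 152, and 94 without PV replicate 1.

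Purkinje cells and Gad2 cells, both GABAergic, come from different regions and strains. miR-126-3p did not pass between them (log2 change 0.06, 95% interval −0.26 to 0.38), and its libraries overlapped. miR-126-5p was 2.19-fold higher in Purkinje cells (adjusted p = 0.00096 in limma), where 20.5% of miRNAs were called higher. miR-143 was 2.14-fold lower and miR-199a-3p 5.72-fold lower in Purkinje cells (adjusted p = 1.02e-05 and 6.19e-07 in limma), where 34.5% were called lower. Of all calls 37.3% were higher in Purkinje cells as deposited and 47.7% with RLE factors.

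**Figure D3:**
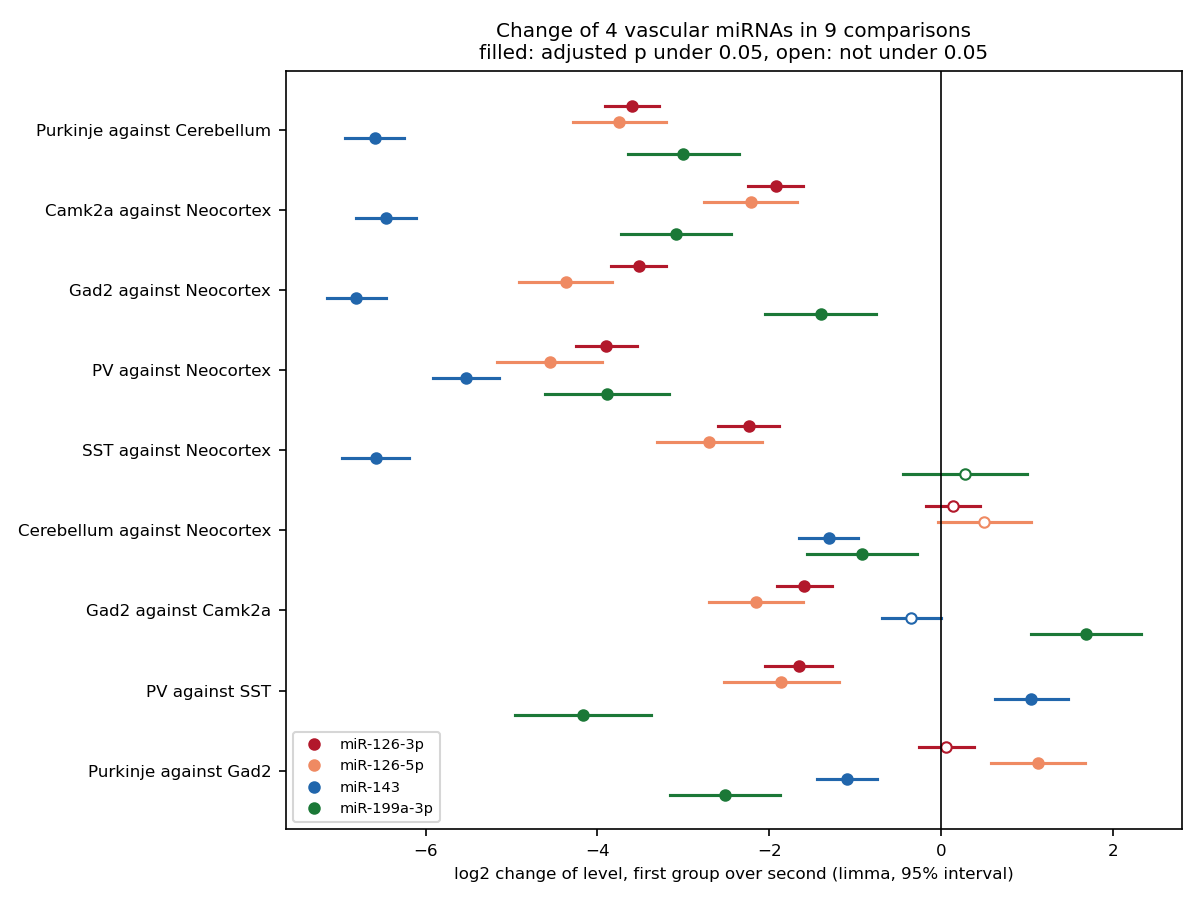
log2 change of the 4 vascular measurements in 9 comparisons, first group over second, with the 95% interval of the limma fit; filled points passed an adjusted p of 0.05 and open points did not. The 5 comparisons with whole tissue lie left of 0 except for miR-199a-3p in SST cells, and PV against SST has miR-143 at 1.05 and miR-199a-3p at −4.16, on opposite sides of 0.

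The change from tissue to Purkinje cells was compared with that from tissue to Gad2 cells by the difference of the log2 changes, Purkinje against Cerebellum minus Gad2 against Neocortex. Of all miRNAs 45.8% passed this test. miR-199a-3p passed, having been 7.99-fold lower in Purkinje cells and 2.64-fold lower in Gad2 cells than in their tissues, with a difference of −1.60 (adjusted p = 0.00481 in limma). The other 3 measurements did not pass, with differences of −0.08 for miR-126-3p, 0.63 for miR-126-5p and 0.21 for miR-143 (adjusted p = 0.800, 0.182 and 0.507 in limma).

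Ratios of reads within a library do not depend on how libraries are scaled. For miR-143 over miR-126-3p the mean ratio was 0.0762 in Purkinje against 0.612 in Cerebellum, and every Purkinje library (0.0733 to 0.0781) lay below every Cerebellum library (0.566 to 0.656). It was 0.172 in Gad2, 0.0721 in Camk2a, 0.536 in PV and 0.0821 in SST, against 1.71 in Neocortex. The mural miRNA was thus lower relative to the endothelial one in all 5 cell classes than in the tissue, least so in PV cells, whose 2 libraries stood at 0.537 and 0.535. For miR-199a-3p over miR-126-3p the ratio was 0.101 in Gad2 and 0.133 in SST, against 0.0237 in Neocortex, while Camk2a (0.0103) lay lower and PV (0.0228) overlapped Neocortex. Exact permutation tests of these 2 ratios in 9 comparisons each (two-sided, 18 tests) gave the smallest p that the design allows in the 16 comparisons without overlap, which is 0.1 for 3 against 3, 0.2 for 2 against 3 and 0.333 for 2 against 2 libraries. None could reach 0.05, and the lowest value after Benjamini-Hochberg adjustment was 0.164. For miR-199a-3p over miR-143 the ratio was 1.62 in SST, 0.605 in Gad2, 0.144 in Camk2a and 0.0426 in PV, against 0.0144 in Neocortex, and 0.225 in Purkinje against 0.0186 in Cerebellum. SST was the only group with more reads of miR-199a-3p than of miR-143, with 93 against 56 reads in replicate 1 and 183 against 116 in replicate 2.

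**Figure D4:**
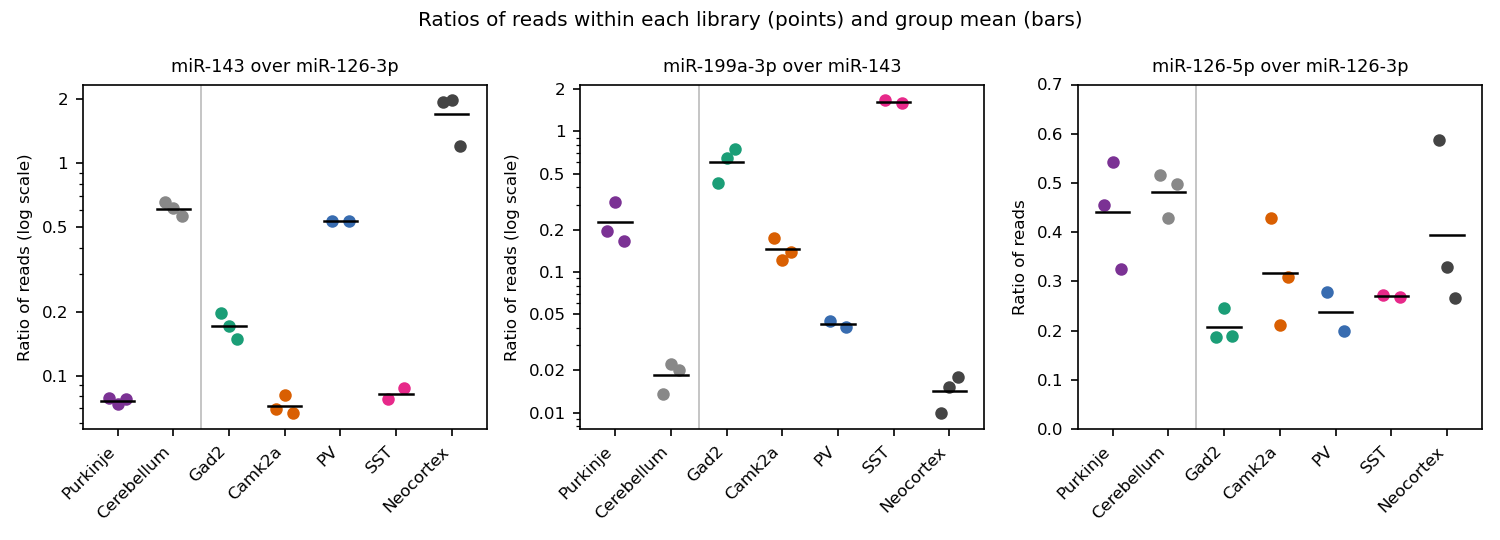
Ratios of reads of 2 miRNAs within each library (points) with group means (bars); log axes in the first 2 panels and a linear axis from 0 in the third. Whole tissues are highest for miR-143 over miR-126-3p and lowest for miR-199a-3p over miR-143, where SST reaches a mean of 1.62.

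The balance of the arms of the miR-126 hairpin varied among libraries of the same group. miR-126-5p over miR-126-3p was 0.456, 0.544 and 0.325 in Purkinje libraries, against 0.516, 0.428 and 0.498 in Cerebellum libraries. It was 0.187, 0.246 and 0.189 in Gad2, 0.429, 0.212 and 0.309 in Camk2a, 0.278 and 0.199 in PV and 0.273 and 0.268 in SST, against 0.587, 0.330 and 0.266 in Neocortex. Neocortex replicate 1 was the highest of all libraries, and the Gad2 libraries all lay below the Neocortex libraries. In limma over 156 hairpins the arm ratio of miR-126 passed in none of 6 comparisons (adjusted p between 0.0947 and 0.823, log2 difference −0.85 for Gad2 against Neocortex), where 29.5% of hairpins passed for Purkinje, 14.7% for Gad2, 34.0% for Camk2a, 30.8% for PV and 39.1% for SST against their tissue, and 37.8% for Cerebellum against Neocortex. At an unadjusted p of 0.05 in limma, 1 of the 6 passed, that of Gad2 cells, and it was called without Neocortex replicate 3 (−1.09, adjusted p = 0.0461).

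Of the 6 other arms and cluster neighbours of the set, 2 were matched, miR-199a-5p and miR-199b*. Both were close to the floor, with 0 to 15 reads and 0 to 7 reads per library, so no fold is given. miR-199a-5p was called lower in Camk2a cells than in Neocortex (28.0% of all miRNAs were), higher in Gad2 than in Camk2a cells (21.5%), lower in PV than in SST cells (25.1%) and lower in Purkinje than in Gad2 cells (34.5%), and miR-199a-3p was called in the same direction in each. It was not called in Purkinje against Cerebellum, in Gad2, PV or SST against Neocortex, or in Cerebellum against Neocortex, and of these miR-199a-3p was called in all but SST. It averaged 3.75 RPM in SST and 1.49 RPM in Neocortex, the 2 groups in which miR-199a-3p was highest. miR-199b* had no read in Purkinje, Gad2 or SST libraries and averaged 2.31 RPM in Cerebellum and 0.472 RPM in Neocortex. It was called lower in Purkinje than in Cerebellum (37.4% of all miRNAs were) and lower in Gad2 (24.3%), Camk2a (28.0%) and SST cells (21.5%) than in Neocortex. Its Neocortex mean lay under the floors of both SST libraries, 2.35 and 1.22 RPM. Absence of reads in SST libraries therefore cannot show a lower level, and no direction is drawn from that call. miR-199b* was called higher in Cerebellum than in Neocortex (19.5%), on 3, 2 and 7 reads against 1, 2 and 5 reads. There miR-199b, whose reads cannot be assigned to one hairpin, was called lower, and in SST cells miR-199b was not called. In the other 4 comparisons miR-199b* was not called.

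The miRNAs whose levels followed each measurement most closely over the 19 libraries were taken from 314 others with a mean of at least 10 RPM. For miR-143 these were miR-144 (Pearson r = 0.947), miR-150 (0.929) and miR-451 (0.917). miR-144 and miR-451 are erythroid miRNAs and miR-150 is a miRNA of lymphocytes. For miR-126-3p they were miR-204* (0.932), miR-32 (0.893) and miR-144 (0.884), and for miR-126-5p miR-32 (0.923), miR-204* (0.895) and miR-451 (0.884). For miR-199a-3p they were miR-181a-1* (0.876), miR-99a (0.842) and miR-100* (0.827), none of which followed the other members among their first 3. Within the set, r was 0.970 between the arms of miR-126, 0.887 between miR-126-3p and miR-143, and 0.607 between miR-143 and miR-199a-3p. These values describe points that share libraries, groups and antibody, and carry no test.

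Together the 4 measurements held 0.0367% ± 0.0055 of miRNA reads in Purkinje, 0.0339% ± 0.0037 in Gad2, 0.0962% ± 0.0034 in Camk2a, 0.0316% ± 0.0025 in PV and 0.0824% ± 0.0022 in SST libraries, against 0.606% ± 0.026 in Cerebellum and 0.809% ± 0.017 in Neocortex (SD, n = 2 for PV and SST and 3 for the others). Camk2a and SST libraries held more than the other classes. miR-126-3p had the most reads of the 4 in every cell-class library, and miR-143 had the most in every Neocortex library.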

How the data were processed

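Small RNAs of 19 to 24 nt bound to immunoprecipitated Ago2 were sequenced on an Illumina Genome Analyzer II, per the labels. Reads were mapped with Bowtie to mm9, per the submitters' processing notes, with no version stated. The deposited signal was scaled by the authors to a common total. Per the file headers it is per 1000000 miRNA reads, yet each column had a total of 10000000, and the values were rescaled to a total of 1000000 to give RPM. All non-zero values were whole multiples of 1 read (within 0.1 read), from which reads were recovered. No 2 replicates agreed within sampling noise: over 17 pairs, chi-square divided by its degrees of freedom was 25.8 to 610.

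Titles gave the groups. limma 3.58.1 (R 4.3.3, with trend) was fitted to log2(value + 1) on the deposited scale, a pseudocount of 0.1 RPM, with 7 group means over 19 libraries. Of 528 names, 522 reached a deposited value of 1 in 2 or more libraries and were tested, with Benjamini-Hochberg adjustment over all of them. Fold changes are on this scale and understate changes of low miRNAs. Arm ratios were log2 ratios of reads plus 0.5 for 156 hairpins. These had a sum of 20 or more reads in 2 libraries and averaged 5 or more reads per arm, which the miR-199a and miR-199b hairpins did not meet. Ratios of miRNAs were tested by exact permutation (scipy 1.17.1), a choice made after seeing the data. Alternatives were edgeR 4.0.16 and DESeq2 1.42.0 on recovered reads, TMM and RLE factors, another pseudocount, other filters, only the groups compared, a replicate block and leaving out each replicate. The fits were tried on simulated data.

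All members are named in each comparison. The miRNAs most alike were the 3 of highest Pearson r. The members and lists were chosen with earlier results of these data known. The lists held 6 partner miRNAs, of which 2 were matched, 7 of blood and leukocytes (7 matched), 3 of oligodendrocytes (2 matched) and 6 of neurons (6 matched). Floors of 3 reads cover counting error only, because reads amplified by PCR with no molecular identifier are not independent.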

Additional observations from a re-analysis of the deposited data

Results flagged for a closer look

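The change from whole tissue differed between Purkinje cells and Gad2 cells for miR-199a-3p and for miR-199b, which stand for 1 measurement. The difference of log2 changes, Purkinje against Cerebellum minus Gad2 against Neocortex, was −1.60 for miR-199a-3p (adjusted p = 0.00481 in limma) and −1.60 for miR-199b (adjusted p = 0.00485 in limma). The Purkinje values rest on 7, 15 and 10 reads. The difference lay between −1.90 and −1.36 over 22 alternatives for miR-199a-3p, and was called in each of them. The other GABAergic classes of the neocortex lay on both sides of this pair: miR-199a-3p was 14.8-fold lower in PV cells than in Neocortex, and its log2 change was 0.28 in SST cells, which did not pass. The difference is therefore given for Purkinje and Gad2 cells and not for the regions. Strain and pooling also differ between the cell classes, and their part was not tested. No group had 4 or more libraries, so single libraries were not tested as outliers.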

How the results depend on the processing

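Of 810 log2 changes of members under alternatives, 774 kept direction and call. In SST against Neocortex the sign of miR-199a-3p and of miR-199b turned to −0.15 and −0.15 with TMM division, −0.082 and −0.086 with RLE division, −0.058 and −0.062 in edgeR with TMM, −0.12 and −0.12 in edgeR with RLE, and −0.12 and −0.13 in DESeq2. In Purkinje against Gad2, miR-126-3p ranged over single replicates left out between −0.0081 (without Purkinje replicate 2) and 0.13. Its difference between the Purkinje and Gad2 changes turned to 0.073 in edgeR with TMM and ranged between −0.25 and 0.021 (without Neocortex replicate 1) over single replicates left out. In Cerebellum against Neocortex 3 of the 5 names were called, and 5 in edgeR with RLE and in DESeq2, while leaving out single replicates gave 1 to 4. The arm ratio of miR-126 ranged in the same way between −0.31 and 0.056 in Purkinje against Cerebellum (highest without Purkinje replicate 3), between −0.54 and 0.038 in Camk2a against Neocortex (highest without Neocortex replicate 1), and between −1.09 and −0.52 in Gad2 against Neocortex. PV against SST had 152 calls over all miRNAs and 94 without PV replicate 1. With a pseudocount of 10, 2 of the 3 most alike miRNAs of miR-126-5p and of miR-143 remained, and 2 of 3 for miR-126-5p with TMM. The cause of these changes was not tested.

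The labels state no pairing, and same-numbered libraries did not deviate together (r between −0.234 and 0.181 over pairs). With the replicate number as a block, 5 of 5 names were called in Purkinje against Cerebellum and 3 of 5 in SST against Neocortex, and no call of a member changed. Depth limits miR-199a-3p most, at 7 to 15 reads in Purkinje libraries.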
